A study of Mus musculus with 9 samples.

Results

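Cytosolic ribosomal protein genes were examined in RNA sequencing libraries of endothelial cells from mouse lung. The genes were taken by symbol: Rpl or Rps followed by a digit, Rplp followed by a digit, or Rpsa, without the Rps6k kinases and without symbols holding -ps. This gave 33 of the 9277 genes in the table. Of a list of 77 ribosomal protein genes, 29 have a row, 19 of 46 from the large subunit and 10 of 31 from the small one. The other 48 have no row and are not analysed here. The rule also took 4 further symbols. Rpl7l1 and Rps27l are relatives of Rpl7 and Rps27, Rps4l is annotated by GENCODE as a transcribed processed pseudogene, and Rps19bp1 encodes a protein that binds Rps19 and is not part of the ribosome.

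The ribosome joins a large subunit (60S), which forms peptide bonds, to a small subunit (40S), which reads the mRNA. Each protein of these subunits is needed in about equal number, and ribosomal protein mRNAs begin with an oligopyrimidine tract (5' TOP) through which mTOR and Larp1 control their translation together. Mammalian genomes hold many processed pseudogenes of these genes, that is, copies of their mRNAs that lie elsewhere in the genome and resemble the parent gene base by base.

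The 4 control libraries came from wild type mice (Tie1-WT). The 5 others came from Tie1-CR mice, whose Tie1, an endothelial receptor of the Tie family, cannot be cut by proteases during inflammation. All 9 library names carry PBS, and no inflammatory treatment is among the libraries analysed here. The labels give no age, sex, strain background or method of cell isolation, and do not name a mouse for each library. The p-values therefore measure spread among samples that may be technical repeats. The sample numbers in the library names follow genotype, and any effect of handling order cannot be told apart from it.

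The libraries hold 38208696 to 54408116 counted reads, and values are counts per 1e6 reads (CPM). Each gene in the table reaches 10 CPM or more in at least 1 library. Tie1 was measured at 2136 ± 42.9 CPM (SD, n = 4) in Tie1-WT and 2433 ± 143 CPM (SD, n = 5) in Tie1-CR, without overlap (two-sided exact permutation p = 0.00794, the smallest possible with 4 and 5 libraries; limma adjusted p = 0.107). The allele changes cleavage of the protein, so this level does not check the labels. All 12 endothelial markers were measured, with sums of 21630 to 23480 CPM in Tie1-WT and 23979 to 24771 CPM in Tie1-CR. The only endothelial marker past the threshold went the other way: Erg, an endothelial transcription factor, fell from a mean of 50.3 to 37.5 CPM (log2 difference -0.41, limma adjusted p = 0.00516). No marker of neutrophils, T and NK cells or mesothelium has a row. Measured markers of airway epithelium, 4 of 8, summed to 12.5 to 38.2 CPM in Tie1-WT and 48.0 to 81.4 CPM in Tie1-CR. Cbr2 and Cyp2f2 among them rose past the threshold (log2 differences 1.31 and 1.14, limma adjusted p = 0.0232 and 0.0428). Foxj1 (1.10, limma adjusted p = 0.0593) and Scgb1a1 (0.04, limma adjusted p = 0.966) did not pass. Measured markers of type 2 pneumocytes, 6 of 9, summed to 279 to 626 CPM and 436 to 789 CPM. All 6 had a difference above 0, and Sftpd alone passed (1.14, limma adjusted p = 0.0440). Macrophage and monocyte markers, 2 of 10 measured, summed to 30.6 to 76.9 CPM and 60.2 to 118 CPM. Of these, Lyz2 had means of 37.8 and 76.2 CPM (log2 difference 1.11, limma adjusted p = 0.0669), while Cd68 had means of 10.7 and 5.30 CPM and fell by 0.90 on the log2 scale (limma adjusted p = 0.00640). Adgre1, Csf1r and C1qa have no row. The sums of type 1 pneumocyte, fibroblast, mural, and erythroid and platelet markers overlapped between genotypes. The type 1 sum, with a mean of 2293 CPM in Tie1-WT, was mostly Cav2 and Clic5 (means 1192 and 868 CPM there). All 5 measured type 1 markers had a difference below 0 and 0 passed. Ager among them had means of 47.2 and 30.6 CPM (log2 difference -0.54, limma adjusted p = 0.511). Cd74 was the only one of 7 B cell markers with a row, at 518 to 1236 CPM and 70.3 to 723 CPM, while Cd79a and Ms4a1 have none. Summed cycling markers, 3 of 7, were 63.3 to 72.2 CPM and 51.6 to 57.3 CPM. Pcna alone among them passed, as lower in Tie1-CR (log2 difference -0.40, limma adjusted p = 0.00629). The 9 genes encoded in mitochondrial DNA, whose share can move with RNA or cell quality, summed to 1985 to 2452 CPM in Tie1-WT and 1678 to 1974 CPM in Tie1-CR. The part of these differences in the results below was not tested. In bulk RNA, fewer cells of a type and less RNA per cell cannot be told apart.

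The results turn on genes that differ in how far their coding sequence can be told from other genes. A stretch was therefore printed for each of the 4 genes that fell, Rpl10, Rpl41, Rpl3 and Rps2, and for Rpl8, a gene of mostly unique sequence. The stretches were read from the GENCODE transcripts of build GRCm38, 5' to 3' on the coding strand. Capitals mark bases that lie in a word of 31 bases found in no other annotated gene, and lower case marks bases that lie in none. The genes lie at chrX:74270812-74273135 (Rpl10, plus strand), chr10:128548114-128549305 (Rpl41, minus strand), chr15:80077791-80091868 (Rpl3, minus strand), chr17:24718116-24721929 (Rps2, plus strand) and chr15:76904078-76906314 (Rpl8, plus strand). The stretches are the first 90 coding bases, except for Rpl41, where all 75 coding bases are given, and Rpl3, where coding bases 726 to 815 are given because they hold nearly all of its unique bases.
Rpl10: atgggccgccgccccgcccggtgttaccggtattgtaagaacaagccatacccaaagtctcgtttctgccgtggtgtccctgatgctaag
Rpl41: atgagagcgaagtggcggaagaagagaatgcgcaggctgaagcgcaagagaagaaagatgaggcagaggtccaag
Rpl3: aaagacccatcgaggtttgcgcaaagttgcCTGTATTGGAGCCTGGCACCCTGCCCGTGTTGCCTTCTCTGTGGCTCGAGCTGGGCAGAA
Rps2: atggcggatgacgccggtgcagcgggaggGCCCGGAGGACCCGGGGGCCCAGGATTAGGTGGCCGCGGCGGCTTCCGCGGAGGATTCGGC
Rpl8: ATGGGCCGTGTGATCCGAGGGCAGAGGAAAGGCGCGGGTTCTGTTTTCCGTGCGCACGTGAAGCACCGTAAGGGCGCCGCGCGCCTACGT
Rpl10 and Rpl41 hold 0 such bases in their whole coding sequence, of 642 and 75 bases, Rpl3 holds 61 of 1209, and Rps2 holds 165 of 879. In Rpl8 719 of 771 coding bases lie in a unique word. Only coding bases were scored. Reads can also come from the untranslated parts of a transcript, whose uniqueness was not examined. The Rpl41 transcript used here has 544 bases, of which 75 are coding.

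Of the 33 genes, 4 fell in Tie1-CR and 0 rose (limma, adjusted p below 0.05). Over all 9277 genes 4.05% of genes passed this test, 2.77% as lower and 1.28% as higher, against 12.1% of the 33 genes as lower. That split of the whole table, 257 lower to 119 higher (68.4% lower), depends on the scaling: 51.6% of calls were lower after TMM scaling and 50.9% after quantile normalization. The log2 difference was below 0 for 29 of the 33 genes, against 58.5% of all genes, and this count was also 29 under both scalings. The median log2 difference was -0.19, against -0.03 over all genes. For 12 genes every Tie1-CR library lay below every Tie1-WT library (36.4% of the 33, against 6.74% of all genes), and for 0 was the order the opposite. These counts describe the genes and are no test of the list. Before adjustment, 17 of the 33 had a limma p below 0.05. The differences of the 33 genes are plotted by subunit.

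**Figure D1:**
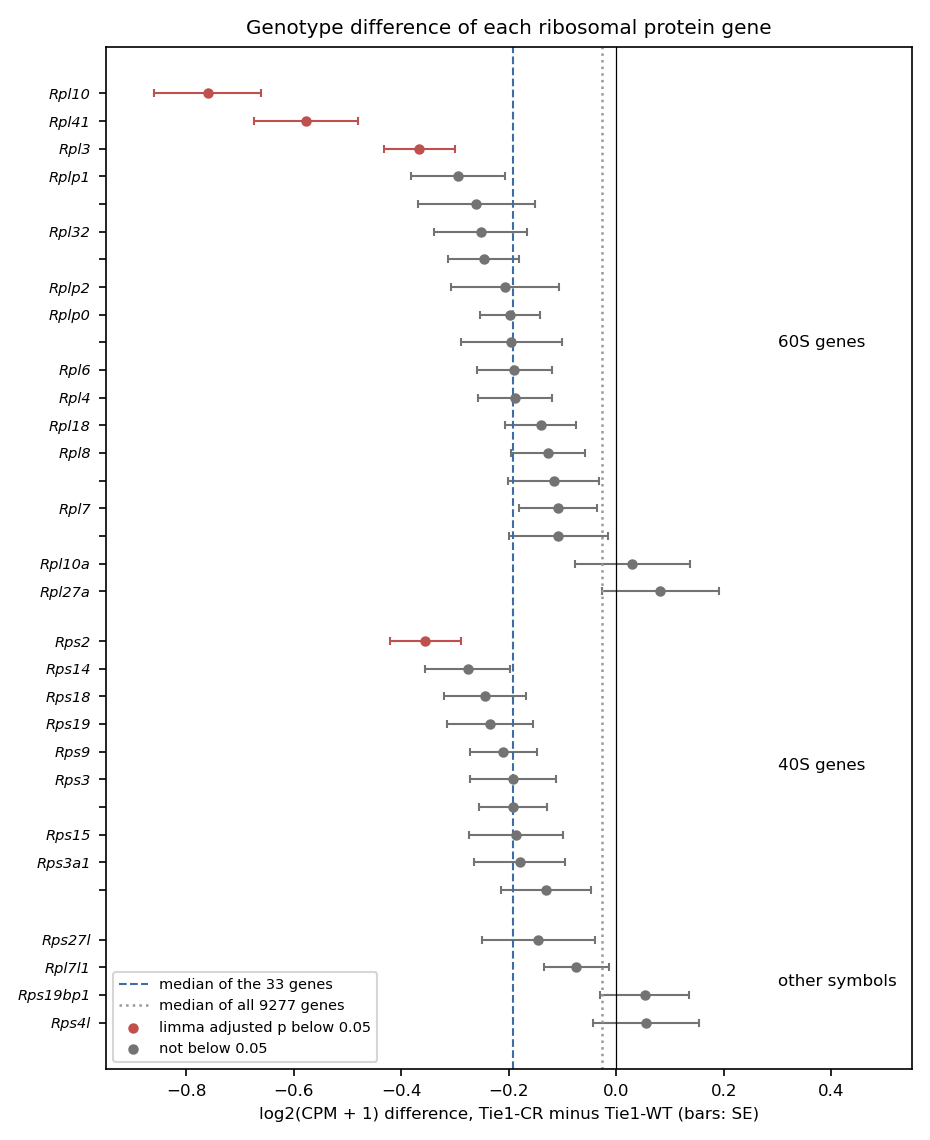
Log2(CPM + 1) difference, Tie1-CR minus Tie1-WT, of each of the 33 genes with its SE, grouped as 60S genes, 40S genes and the 4 other symbols. Names are given for the genes described in the text. Red points are the 4 genes with a limma adjusted p below 0.05, and 29 of the 33 points lie left of 0. The dashed line is the median of the 33 genes (-0.19) and the dotted line that of all 9277 genes (-0.03).

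Rpl10 had the largest difference. Its protein is among the last to join the large subunit in the cytoplasm and lies near the peptidyl transferase centre. Rpl10 was measured at 16.6, 18.0, 17.4 and 16.6 CPM in the Tie1-WT libraries and at 10.5, 9.21, 9.39, 7.94 and 11.9 CPM in the Tie1-CR libraries. The lowest Tie1-WT library stood well above the highest Tie1-CR library. The log2(CPM + 1) difference was -0.76 (SE 0.10, limma adjusted p = 0.00399), a fall of 1.69-fold on that scale.

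Rpl41 encodes a very short basic protein at the interface of the subunits. Its levels were 46.3, 44.0, 45.6 and 48.3 CPM in Tie1-WT and 32.0, 36.9, 25.5, 26.6 and 32.9 CPM in Tie1-CR. The groups did not overlap, and the Tie1-CR libraries were more spread out (SD 4.73 against 1.78 CPM). Rpl41 fell by 0.58 on the log2 scale (SE 0.10, limma adjusted p = 0.0108). Without Tie1-WT replicate 1 its difference was -0.57 and its adjusted p 0.0509.

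Rpl3 encodes a large core protein of the 60S subunit that reaches towards the peptidyl transferase centre. Rpl3 stood at 21.6, 21.3, 25.4 and 22.5 CPM in Tie1-WT and at 17.4, 18.1, 16.1, 17.3 and 18.0 CPM in Tie1-CR. The Tie1-CR libraries were close to each other and all lay under the Tie1-WT libraries. Rpl3 fell by 0.37 on the log2 scale (SE 0.07, limma adjusted p = 0.0144). Without Tie1-WT replicate 1 its difference was -0.39 and its adjusted p 0.0509.

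Rps2 was the gene of the 40S subunit that fell. Its protein lies where the mRNA enters the small subunit. Rps2 was measured at 18.7, 19.3, 21.1 and 18.8 CPM in Tie1-WT and at 16.2, 15.3, 14.3, 13.8 and 15.2 CPM in Tie1-CR. The groups did not overlap, with Tie1-CR replicate 1 nearest to the Tie1-WT libraries. Rps2 fell by 0.36 on the log2 scale (SE 0.07, limma adjusted p = 0.0158). Its adjusted p was 0.0573 without Tie1-WT replicate 1 and 0.0508 without Tie1-WT replicate 3.

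**Figure D2:**
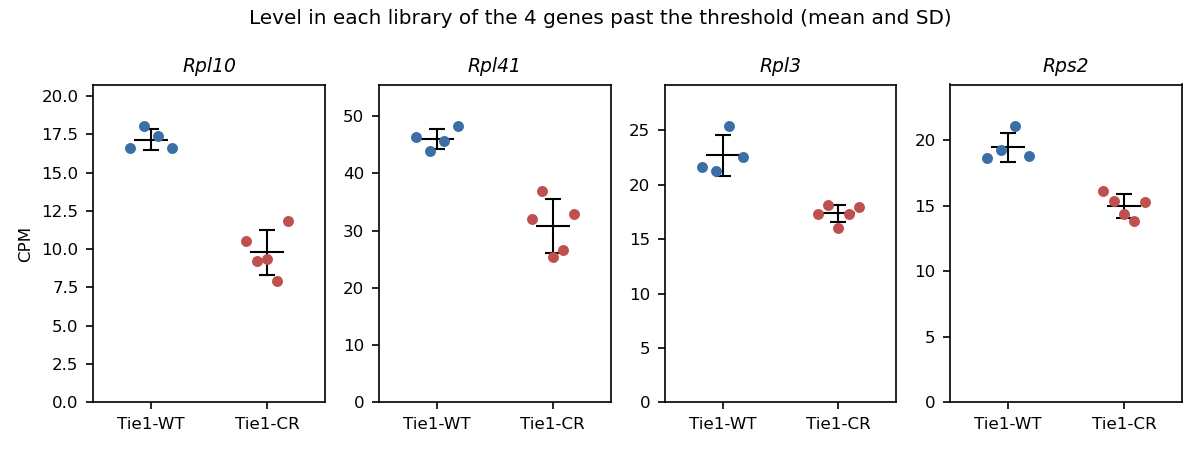
CPM in each library (points) of the 4 genes that fell, with the mean and SD per genotype (n = 4 Tie1-WT, n = 5 Tie1-CR) and each axis starting at 0. In Rpl10, Rpl41, Rpl3 and Rps2 every Tie1-CR library lies below every Tie1-WT library.

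The count of falling genes rested on single libraries. It was 1, Rpl10, without Tie1-WT replicate 1. It was 9 without Tie1-CR replicate 1, where Rpl32, Rplp0, Rplp1, Rps14 and Rps9 also passed.

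In the large subunit, 3 of the 19 measured genes fell, 17 had a difference below 0, and the median was -0.20. Rplp0, Rplp1 and Rplp2 form the stalk that recruits elongation factors to the ribosome, with Rplp0 at its base and the other two as dimers on it. None of these 3 passed the threshold. Rplp0 was at 91.0, 95.4, 95.0 and 93.6 CPM in Tie1-WT and at 90.9, 78.5, 75.2, 80.8 and 83.4 CPM in Tie1-CR. Its groups were separated only by the gap between the first replicates, and its difference was -0.20 (SE 0.06, limma adjusted p = 0.0699). Rplp1 was at 19.1 to 21.2 CPM in Tie1-WT and 13.2 to 18.5 CPM in Tie1-CR, also without overlap (difference -0.29, SE 0.09, limma adjusted p = 0.0784). Rplp2 overlapped, at 11.4 to 14.6 and 9.80 to 13.4 CPM.

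Rpl18 and Rpl6, further 60S proteins, did not overlap between genotypes and missed the threshold. Rpl18 was at 17.9 to 18.8 CPM in Tie1-WT and 14.4 to 17.4 CPM in Tie1-CR (difference -0.14, limma adjusted p = 0.240). Rpl6 was at 10.1 to 10.4 and 8.54 to 9.37 CPM (-0.19, limma adjusted p = 0.135). Rpl6 reaches the 10 CPM of the table in Tie1-WT alone, so its presence in the table depends on the group in which it is higher. The same holds in the other direction for Rpl27a, which reaches it in Tie1-CR alone. The other 31 genes reach it in both genotypes, and 28 of these have a difference below 0, with a median of -0.19.

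The large subunit also held the 2 ribosomal proteins whose difference was above 0. Rpl27a was at 7.80 to 9.34 CPM in Tie1-WT and 7.48 to 11.0 CPM in Tie1-CR (difference 0.08, SE 0.11, limma adjusted p = 0.689). Rpl10a was at 8.95 to 11.9 and 9.56 to 12.5 CPM (0.03, SE 0.11, limma adjusted p = 0.898), and without Tie1-WT replicate 1 its difference was -0.03. The groups of both genes overlapped widely.

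In the small subunit, 1 of the 10 measured genes fell, 10 had a difference below 0, and the median was -0.20. Rps18, of the head of the subunit, was at 11.0 to 12.4 CPM in Tie1-WT and 8.90 to 10.7 CPM in Tie1-CR (difference -0.24, SE 0.08, limma adjusted p = 0.0945). Rps19, the gene mutated most often in Diamond-Blackfan anaemia, was at 12.7 to 14.6 and 10.2 to 12.3 CPM (-0.24, SE 0.08, limma adjusted p = 0.111). Neither gene overlapped between genotypes or passed the threshold. The differences of Rps3, Rps3a1, Rps9, Rps14 and Rps15 ran from -0.28 to -0.18, and the groups of each overlapped.

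The 4 symbols outside the list of ribosomal proteins had a median difference of -0.01, and 0 of them passed. Rps4l was at 76.4 to 102 CPM in Tie1-WT and 72.8 to 94.8 CPM in Tie1-CR (difference 0.05, limma adjusted p = 0.779). Rps19bp1 was at 12.3 to 14.1 and 11.6 to 15.1 CPM (0.05, limma adjusted p = 0.739). Rps27l, known as a p53 target, was at 17.0 to 22.6 and 15.5 to 22.1 CPM (-0.14, limma adjusted p = 0.438). Rpl7l1, which takes part in assembly of the large subunit, was at 71.9 to 75.9 and 63.3 to 77.2 CPM (-0.07, limma adjusted p = 0.489). All 4 overlapped between genotypes.

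Of 8 pairs of a ribosomal protein gene and its paralog, only Rpl7 with Rpl7l1 had both genes in the table. Rpl7 itself was at 19.7 to 22.1 CPM in Tie1-WT and 17.7 to 21.7 CPM in Tie1-CR (log2 difference -0.11, limma adjusted p = 0.398). The log2 ratio of Rpl7l1 to Rpl7 was 1.80 ± 0.06 (SD, n = 4) in Tie1-WT and 1.84 ± 0.03 (SD, n = 5) in Tie1-CR, with overlap, a difference of 0.04 (two-sided exact permutation p = 0.222). Without Tie1-WT replicate 1 the difference was 0.07 (exact permutation p = 0.0179).

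Summed over the 33 genes, the libraries held 1102 ± 41.7 CPM (SD, n = 4) in Tie1-WT and 970 ± 77.5 CPM (SD, n = 5) in Tie1-CR, that is 0.106% to 0.115% and 0.0893% to 0.107% of reads. The Tie1-WT libraries stood at 1056, 1081, 1150 and 1121 CPM. The Tie1-CR libraries stood at 1069, 926, 893, 923 and 1036 CPM. Tie1-CR replicate 1 lay among the Tie1-WT libraries, and Tie1-CR replicate 5 lay just under them. The median log2 distance of the 33 genes from their Tie1-WT mean showed the same order, at -0.04 in Tie1-CR replicate 1, -0.13 in replicate 5, and -0.21, -0.32 and -0.25 in replicates 2, 3 and 4. In the Tie1-WT libraries it ran from -0.06 to 0.04. Tie1-WT replicate 1 had 30 of 33 genes below the Tie1-WT mean, more than the 20 of Tie1-CR replicate 1. Without the 4 falling genes the sums were 996 ± 38.7 and 897 ± 73.6 CPM. The overlap of the sums was not seen for the 29 listed ribosomal protein genes alone, without the 4 other symbols. Their sums were 873 to 937 CPM in Tie1-WT and 712 to 864 CPM in Tie1-CR.

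**Figure D3:**
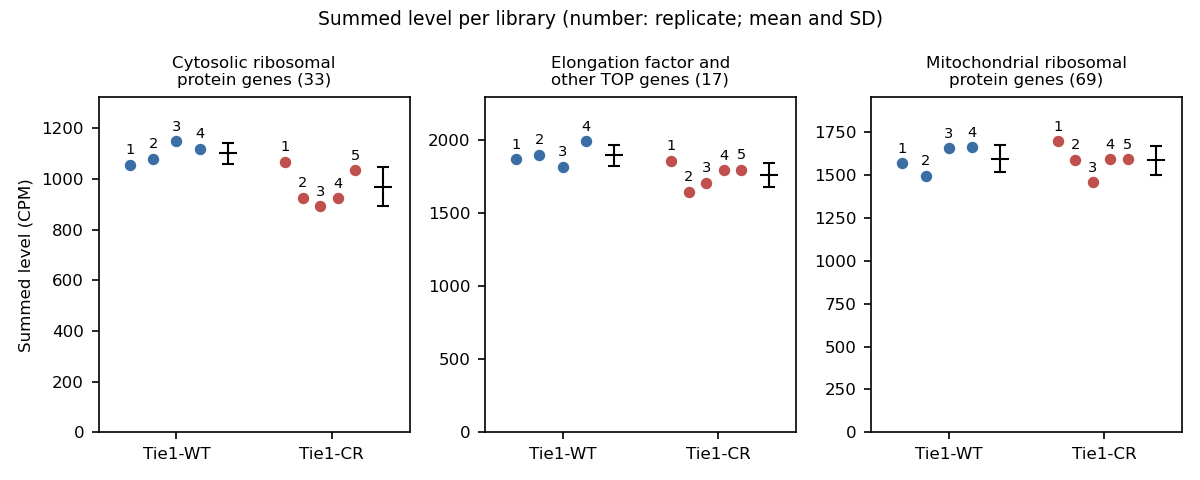
Summed CPM in each library (points, numbered by replicate, with mean and SD to the right) of the 33 cytosolic ribosomal protein genes, the 17 measured elongation factor and other TOP genes and the 69 mitochondrial ribosomal protein genes. Tie1-CR replicate 1, at 1069 CPM, lies within the Tie1-WT range of 1056 to 1150 CPM in the first panel. That panel includes the 4 symbols outside the list of ribosomal proteins.

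Mitochondrial ribosomal proteins build a separate ribosome that translates mitochondrial mRNAs. Of their 69 measured genes 0 passed the threshold, 45 had a difference below 0, and the median was -0.03, that of all genes. Their summed levels were 1595 ± 79.3 and 1585 ± 85.3 CPM and overlapped. Over all genes 4.05% passed the threshold and 58.5% had a difference below 0. No test compared the lists.

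Rack1, a signalling scaffold on the small subunit, was the only one of the listed ribosomal proteins with other names that was measured, at 67.5 to 75.7 CPM in Tie1-WT and 66.1 to 75.7 CPM in Tie1-CR (log2 difference -0.06, limma adjusted p = 0.605). Among 17 measured genes of elongation factors and other 5' TOP mRNAs, 1 fell, 15 had a difference below 0, and the median was -0.09. Over all genes 2.77% fell and 58.5% had a difference below 0. Pabpc1, which binds poly(A) tails and has a TOP mRNA, was at 65.7, 72.6, 67.7 and 66.1 CPM in Tie1-WT and at 48.8, 49.9, 48.7, 52.1 and 55.0 CPM in Tie1-CR. The Pabpc1 groups stood far apart, and the gene fell by 0.41 on the log2 scale (SE 0.05, limma adjusted p = 0.00372).

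Over all 9277 genes 2.77% fell and 1.28% rose, the background for the list counts that follow, which have no test. Of 65 measured genes of ribosome biogenesis, 4 fell, 0 rose, and the median was -0.04. These were Tcof1, which encodes treacle, a factor of rRNA transcription (log2 difference -0.44), Nop58 (-0.39) and Nop56 (-0.27), core proteins of the particles that methylate rRNA, and nucleolin, Ncl (-0.19). Nop58 had 27.6 to 30.7 CPM in Tie1-WT and 19.4 to 26.2 CPM in Tie1-CR, without overlap. Their limma adjusted p values lay between 0.0254 and 0.0369. Without Tie1-WT replicate 1 all 4 missed the threshold, with adjusted p values of 0.0656 for Tcof1, 0.105 for Nop58, 0.0810 for Nop56 and 0.113 for Ncl, and each also missed it without some other single libraries. After TMM scaling Ncl had an adjusted p of 0.0640. With a correction for GC content and length, Nop56, Nop58 and Ncl missed the threshold (adjusted p 0.0613, 0.0660 and 0.231), and the difference of Ncl was -0.12. Of 26 genes of mTOR and Myc control, only Max, the partner of Myc, passed (-0.31, limma adjusted p = 0.0492), and its adjusted p was 0.0665 after TMM scaling and 0.132 without Tie1-WT replicate 1. Of 13 measured genes that rescue stalled ribosomes 0 passed. Hbs1l, which splits stalled ribosomes with Pelo, and Zfp598, which marks collided ones, had the smallest p (log2 differences -0.13 and 0.14, limma adjusted p = 0.102 and 0.127). A list of 11 genes of the p53 pathway was taken for its known response to free ribosomal proteins, which were not measured. In it 9 genes had a difference below 0, and the median was -0.13. Only Pmaip1, which encodes the pro-apoptotic Noxa, passed the threshold (-0.67, limma adjusted p = 0.00105). Cdkn1a had the largest difference of the list, with overlapping groups (-0.79, limma adjusted p = 0.0928).

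The level at which the genes appeared, per kilobase of coding sequence, tended to be higher with more unique coding sequence. Per kilobase of coding sequence, Rpl8 and Rps3, whose coding words are 88.9% and 81.0% unique, were at 99.1 and 112 CPM per kb. Rpl10, Rpl3 and Rps2 were at 20.3, 16.3 and 19.3 CPM per kb. Rpl41 was an exception at 501 CPM per kb of its very short coding sequence. Rps19bp1, with 100% unique coding words, was another at 30.9 CPM per kb. Reads can also come from untranslated sequence, which the coding length leaves out. The transcripts of Rpl41 and Rps3 have 544 and 1908 bases, of which 75 and 729 are coding. Across the 32 genes with a coding sequence, log2 CPM per kb and the unique share had Pearson's r = 0.449 and Spearman's rho = 0.643. These are correlations across genes of the same libraries and have no test.

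Presence in the table differed likewise. Among the 29 ribosomal protein genes with a row, a median of 14.0% of coding words of 31 bases occurred in no other annotated gene (range 0% to 96.7%), and 10 genes exceeded 25%. Among the 48 without a row, the median was 0%, the highest value 24.7%, and 29 genes had no unique word. For the table as a whole the median was 100%, and 1.69% of 8876 genes lay under 10%. Genes without a row had more copies: the median number of pseudogenes elsewhere in the genome that share at least 50% of the coding words was 4, against 1 for genes with a row. How reads that match several places were counted is not given in the sources used here.

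**Figure D4:**
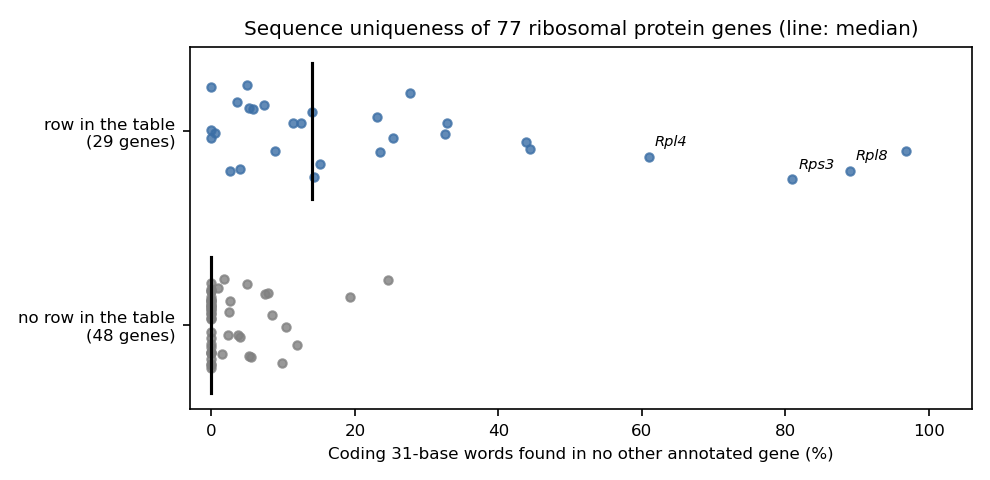
Share of coding words of 31 bases found in no other annotated gene, for the 29 ribosomal protein genes with a row in the table and the 48 without one (points, spread vertically for visibility, with the median as a line at 14.0% and 0%). All 10 genes above 25% have a row, with Rpl8, Rps3 and Rpl4 among those furthest right.

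The 4 genes that fell all have less than 10% unique coding words: Rpl10 and Rpl41 have 0%, Rpl3 has 2.63% and Rps2 has 8.83%. Other annotated genes share words with each of them, 23 genes with Rpl10, 33 with Rpl3, 96 with Rps2 and 5 with Rpl41, while Rpl8 shares words with 1 gene. Of the 12 ribosomal genes under 10%, 4 fell and the median difference was -0.25. Of the 15 genes from 10% to 50%, which include Rpl7l1 and Rps27l, 0 fell and the median was -0.20. Of the 5 genes from 50% upwards, with Rpl4, Rpl8, Rps3 and also Rps19bp1 among them, 0 fell and the median was -0.19.

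The same division was made for the other genes of the table. Of 138 other genes under 10% unique, 13.0% fell and 0 rose, with a median of -0.08. Of 406 other genes from 10% to 50%, 3.45% fell and 0.246% rose, with a median of -0.07. Of 8300 other genes from 50% upwards, 2.45% fell and 1.31% rose, with a median of -0.02. As a description with no test, the share of falling genes was highest under 10% unique coding words, among ribosomal protein genes and among others. Untranslated sequence was not scored. Whether reads from pseudogenes or the handling of shared reads enter the falls of Rpl10, Rpl41, Rpl3 and Rps2 was not tested. For genes of mostly unique sequence the values were Rpl4 -0.19 (91.4 to 115 CPM in Tie1-CR, 114 to 123 CPM in Tie1-WT), Rpl8 -0.13 and Rps3 -0.19, with limma adjusted p values from 0.133 to 0.301.

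**Figure D5:**
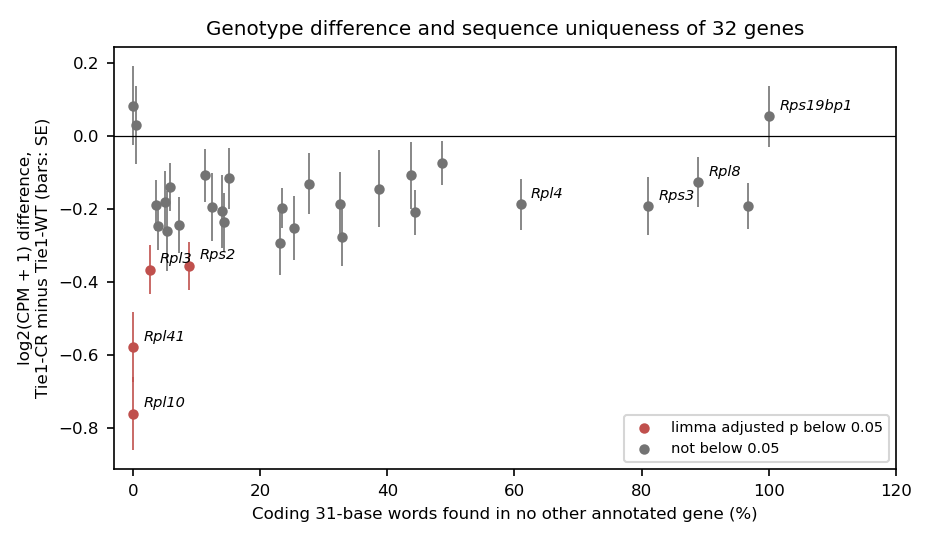
Log2(CPM + 1) difference, Tie1-CR minus Tie1-WT, with its SE, against the share of coding words of 31 bases found in no other annotated gene, for the 32 genes with a coding sequence. The 4 genes with a limma adjusted p below 0.05 (red) lie under 10%, and the genes beyond 50% lie between -0.19 and 0.05.

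Promoter sequences from RefSeq (build GRCm38.p6, 250 bases before to 50 after the start site) were found for 23 of the 33 genes, with 3 of the 4 falling genes among them. The 90 bases before the start site are given for these 3, to show how they differ, with capitals marking GGGCGG and CCGGAAG on either strand. The Rpl10 stretch holds neither word, that of Rpl41 holds both, and that of Rps2 holds GGGCGG alone.
Rpl10, chrX:74270726-74270815, plus strand: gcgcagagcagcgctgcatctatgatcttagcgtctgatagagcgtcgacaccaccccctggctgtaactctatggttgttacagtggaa
Rpl41, chr10:128549169-128549258, minus strand: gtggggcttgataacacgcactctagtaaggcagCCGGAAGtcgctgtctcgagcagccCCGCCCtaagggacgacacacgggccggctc
Rps2, chr17:24719973-24720062, plus strand: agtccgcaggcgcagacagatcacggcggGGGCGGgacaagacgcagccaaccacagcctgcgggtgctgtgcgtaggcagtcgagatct
In windows of 300 bases GGGCGG (both strands) occurred in 16 of the 23 genes, 69.6%, against 72.5% of the table's genes with a window. CCGGAAG (both strands), a word of ETS factor sites, occurred in 9 of 23, 39.1%, against 21.7%, and CTTTCC (sense strand), a pyrimidine-rich word, in 9 of 23, against 17.4%. ATGGCGG occurred in 26.1% against 10.8%, TATAAA in 13.0% against 8.16% (both strands), CTTTTC in 30.4% against 12.3%, and CTCTTTC in 8.70% against 4.50% (sense strand). CTTTCC and CTCTTTC can overlap. A match is a description of these letters.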

How the data were processed

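Per the labels' protocols, RNA from a PicoPure kit was turned into libraries by the SMARTer Ultra Low kit. The submitters' processing notes name STAR 2.7, GRCm38.p6 and mm10. Which counter, strand setting, annotation and filter were used is not given in the sources used here. The table that the authors deposited is called TPM, but its values are CPM: 100% are whole multiples of a step per library, within 0.01 reads, and the steps give the read totals, of which 98.3% to 98.6% fall in the table. Of its value columns 0 are without a sample.

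Values were tested as log2(CPM + 1) with limma 3.58.1 in R 4.3.3 (trended empirical Bayes, two-sided, Benjamini-Hochberg over all 9277 genes, threshold 0.05), with a filter of 1 CPM in 4 libraries that removed no gene. On this scale the changes of low genes come out too small. Members had 309 to 6275 reads per library, a counting error of 5.69% to 1.26% if reads are independent. Such errors cover counting only. In simulated data for the 9277 genes of this comparison, 88% of 100 genes changed by 0.5 log2 and 98% of 100 changed by 1 log2 were recovered, with 10 false calls. Smaller changes, such as the median of -0.19 of the 33 genes, were not planted. Each gene was drawn independently, so shifts shared by many genes of a library were not simulated. Tie1 and the paralog ratio were tested by exact permutation of the libraries. The members, gene lists and rules were chosen with earlier results of these data known. Named genes are members past the threshold, those without overlap, the 4 largest differences each way, measured paralog pairs, the 4 other symbols, up to 4 genes past the threshold per pathway list or otherwise the 2 with the smallest p, and Tie1. Rpl4, Rpl8, Rps3, Rps9, Rps14, Rpl32, Rplp2 and further members are named outside this rule, after their values were seen. The same holds for Cdkn1a and for single cell type markers. Some genes that the rule names are not reported here.

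Positions and coding words of 31 bases came from GENCODE vM21 (GRCm38), which matched 9048 of 9277 symbols (97.5%). A word counted as unique where no other annotated gene holds it in its transcripts. Only words of the coding sequence were scored, while the comparison covered whole transcripts of the other genes. Alternatives covered the pseudocount, the filter, scaling, variance models, a replicate block, a correction for GC content and length, and each library left out. Members restricted to those reaching 10 CPM in both genotypes, or with at least 10% unique words, were added after seeing the data. Plots were drawn with matplotlib 3.10.9.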

Additional observations from a re-analysis of the deposited data

Results flagged for a closer look

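A library stood apart from the rest of its genotype in 5 of 70 groups examined, by the gap to its nearest neighbour as a share of the group's whole range. Chance gives about 1 in 20. Rpl18 was at 18.8 CPM in Tie1-WT replicate 2 against 17.9 to 18.0 CPM in the other Tie1-WT libraries (share 0.923). Rpl27a was at 7.80 CPM in the same library against 9.16 to 9.34 CPM (0.884). Rplp1 was at 21.2 CPM in Tie1-WT replicate 4 against 19.1 to 19.4 CPM (0.852). Rps4l was at 102 CPM in Tie1-WT replicate 3 against 76.4 to 79.4 CPM (0.886). Tie1 was at 2679 CPM in Tie1-CR replicate 4 against 2329 to 2423 CPM in the other Tie1-CR libraries (0.732).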

How the results depend on the processing

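Of the 33 genes, 4 were past the threshold (limma) with either other pseudocount, both filters, both scalings and robust variances. With the replicate number as a block the count was 2 of 33 and 182 over all genes, and with single libraries left out 1 to 9 and 60 to 355. Library weights gave 6 of the 33 and 661 of all genes, with Rplp0 and Rplp1 added (adjusted p 0.0371 and 0.0330), and the GC and length correction gave 5 of the 33, with Rplp1 added (0.0351). Of the 20 members with at least 10% unique words 0 passed, as the 4 falling genes are not among them. Rpl10 passed in all 19 alternative fits. Rpl3 and Rps2 missed the threshold under the replicate block, at adjusted p 0.0777 and 0.0803, as did Nop56 and Ncl (0.0804 and 0.104). Correlations of same-numbered deviations ran from -0.144 to 0.190 over 4 pairs, and 1 of 4 libraries correlated best with its own number. So few pairs cannot settle whether the numbers pair the libraries. The median difference of the 33 genes ran from -0.23 to -0.13 over the alternatives. The log2 difference of Rpl10a (0.03) was -0.0287 under the block and ran from -0.0288 to 0.0941 with single libraries left out, below 0 for Tie1-WT replicates 1 (-0.0288) and 4 (-0.0151) and for the fifth Tie1-CR library (-0.0287), and that of Rps27l to 0.0150 with the GC and length correction. The paralog ratio difference ran from 0.0188 to 0.0669 with single libraries left out, was 0.0398 under the block (exact p = 0.5), and passed only without Tie1-WT replicate 1. The cause of these changes was not tested. Count models on reads worked back from the CPM values were planned and not run. Genes under 10 CPM in every library are not in the table.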
